A study of Rattus norvegicus with 13 samples.

Results

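The milk protein genes described here are *Csn1s1*, *Csn1s2a*, *Csn2*, *Csn3*, *Wap*, *Lalba* and *Glycam1*, named for their known part in milk. All 7 were found, as 7 of the 14790 genes in the deposited table of rat mammary epithelial cells. RNA-seq libraries came from 6 rats aged 6 weeks, an age inside the window in which the gland is most susceptible to cancer (within WOS), and from 7 rats aged 10 weeks (outside WOS), 1 for each rat. All 13 rats were of the cancer-susceptible Wistar-Furth strain, and no label names a treatment, a mating history or a stage of the estrous cycle. The cells were ductal fragments held back by a nylon filter after collagenase digestion of abdominal and inguinal glands, a fraction that is mainly epithelial and still holds some stromal and immune cells. The question asked was whether expression of these genes differed between the ages, how widely it ranged between rats, and whether the genes went up and down together from rat to rat.

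Caseins are the phosphoproteins that carry calcium in milk as micelles, while whey acidic protein and alpha-lactalbumin belong to the soluble fraction. Their genes are known as targets of prolactin, which acts through its receptor, the kinase JAK2 and the transcription factor STAT5, together with glucocorticoid and insulin. Full expression belongs to late pregnancy and lactation, and luminal cells of the virgin gland are known to express caseins at lower and changeable levels.

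By symbol, all 7 members were found in the RefSeq rat annotation on the GRCr8 build. *Csn1s1*, *Csn1s2a*, *Csn2* and *Csn3* lie in 1 cluster on chromosome 14, *Wap* lies elsewhere on chromosome 14, and *Lalba* and *Glycam1* are both on chromosome 7. The promoters of the 4 caseins are shown because these genes share a locus and moved together between rats, as described below. Each line gives the 250 bases before the annotated start, 5′ to 3′ on the strand of the gene, and capitals mark matches to TTCNNNGAA, the consensus of STAT factors. This motif reads the same on both strands. The windows are chr14:20638850-20639099 (minus strand) for *Csn1s1*, chr14:20574472-20574721 (minus strand) for *Csn1s2a*, chr14:20601574-20601823 (plus strand) for *Csn2* and chr14:20439831-20440080 (minus strand) for *Csn3*.
Csn1s1: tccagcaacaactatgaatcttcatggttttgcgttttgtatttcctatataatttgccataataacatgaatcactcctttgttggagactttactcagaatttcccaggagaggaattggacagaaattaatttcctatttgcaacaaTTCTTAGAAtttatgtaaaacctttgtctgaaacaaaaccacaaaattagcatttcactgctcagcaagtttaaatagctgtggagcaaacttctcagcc
Csn1s2a: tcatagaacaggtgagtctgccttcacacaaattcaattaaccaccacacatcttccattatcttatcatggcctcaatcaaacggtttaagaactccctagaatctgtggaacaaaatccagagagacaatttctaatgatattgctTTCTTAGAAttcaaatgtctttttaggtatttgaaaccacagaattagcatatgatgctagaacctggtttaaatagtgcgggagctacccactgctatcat
Csn2: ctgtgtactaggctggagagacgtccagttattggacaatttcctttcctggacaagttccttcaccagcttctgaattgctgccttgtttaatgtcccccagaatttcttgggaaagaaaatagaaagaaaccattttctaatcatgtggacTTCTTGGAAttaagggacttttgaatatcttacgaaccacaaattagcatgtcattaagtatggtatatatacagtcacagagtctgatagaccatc
Csn3: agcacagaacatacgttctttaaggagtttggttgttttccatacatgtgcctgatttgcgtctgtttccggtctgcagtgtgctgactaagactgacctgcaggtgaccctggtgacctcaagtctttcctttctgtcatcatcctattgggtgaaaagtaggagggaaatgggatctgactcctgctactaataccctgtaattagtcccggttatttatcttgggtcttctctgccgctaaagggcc

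*Csn1s1*, *Csn1s2a* and *Csn2* each held 1 match, and its first base lay 100, 102 and 97 bases before the start. The letters were TTCTTAGAA in *Csn1s1* and *Csn1s2a* and TTCTTGGAA in *Csn2*. *Csn3* held none in this window, and neither did *Wap* or *Lalba*. *Glycam1* held 1 match, TTCCCAGAA, whose first base lay 175 bases before the start. Its window, chr7:136561300-136561549 (minus strand), is shown because the match sits farther out than in the caseins.
Glycam1: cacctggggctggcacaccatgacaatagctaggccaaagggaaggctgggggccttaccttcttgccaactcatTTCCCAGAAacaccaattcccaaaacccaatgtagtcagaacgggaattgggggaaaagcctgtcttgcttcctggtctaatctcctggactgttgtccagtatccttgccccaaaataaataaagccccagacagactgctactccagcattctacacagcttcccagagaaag

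Of the 33469 promoter windows of this length in the table, 2566 (7.67%) held the motif. In 218 windows (0.651%) a match began between 90 and 110 bases before the start, as in the 3 caseins above, a range chosen after their positions were seen. A match describes letters only, and no binding was measured here.

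Normalized counts, the deposited unit, are RSEM counts scaled for each library and rounded. Their total per rat was 13261906 to 15659533 within WOS and 13766735 to 15402814 outside WOS. The 7 members together took 0.0651% to 0.412% of the total within WOS (median 0.175%) and 0.0591% to 1.52% outside WOS (median 0.108%). Both the lowest and the highest share belonged to rats outside WOS, rat 83 and rat 81. All 15 luminal markers were measured, and none was at 0 in any rat. This shows that luminal transcripts were present, and not what share of the cells was luminal. Basal markers (11 of 12 measured) were not at 0 in any rat either, with sums of 26484 to 41785 within WOS and 37053 to 48120 outside WOS. The summed luminal markers were 51320 to 81405 within WOS and 72710 to 96037 outside WOS. Summed fibroblast markers (9 of 10 measured) were 114310 to 235056 within WOS against 21988 to 58845 outside WOS, with no overlap. The collagen genes *Col3a1* (means 108000 and 24800) and *Col1a1* (means 50200 and 13300) weighed most in these sums. Of the 9, 7 were higher within WOS at a limma adjusted p under 0.05, and *Dcn* (0.197) and *Pdgfra* (0.78) were not. In bulk samples, fewer cells of a type and less RNA per cell cannot be told apart.

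*Csn1s1*, which encodes alpha-S1-casein, was measured within WOS at 21561 normalized counts in rat 70, 6647 in rat 71, 5205 in rat 75, 6651 in rat 80, 36630 in rat 84 and 44111 in rat 86. Outside WOS the values were 6335 in rat 72, 5233 in rat 74, 24922 in rat 78, 153585 in rat 81, 3067 in rat 83, 4841 in rat 85 and 10423 in rat 87. The ages overlapped throughout, with the highest and the lowest rat both outside WOS. The means were 20100 ± 16900 (SD, n = 6) at 6 weeks and 29800 ± 55100 (SD, n = 7) at 10 weeks. On the log2(normalized count + 1) scale the order of the means turned, with a log2 fold change (6 over 10 weeks) of 0.36 (SE 0.87) and a limma adjusted p of 0.807.

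*Csn2*, the gene of beta-casein, ranged far more widely. Its normalized counts within WOS were 270 in rat 70, 2 in rat 71, 19 in rat 75, 6 in rat 80, 1473 in rat 84 and 1580 in rat 86. Outside WOS it was at 21 in rat 72, 11 in rat 74, 171 in rat 78, 13439 in rat 81 and 26 in rat 87, and at 4 in both rat 83 and rat 85. The same 3 rats within WOS (70, 84 and 86) and the same 2 outside WOS (78 and 81) were the high ones as for *Csn1s1*. The log2 fold change was 0.81 (SE 2.03), with a limma adjusted p of 0.815.

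*Csn1s2a*, the alpha-S2-casein gene from the same cluster, was listed within WOS at 228 normalized counts in rat 70, 4 in rat 71, 0 in both rat 75 and rat 80, 639 in rat 84 and 520 in rat 86. Outside WOS the values were 9 in rat 72, 4 in rat 74, 72 in rat 78, 4579 in rat 81, 1 in rat 83, 2 in rat 85 and 27 in rat 87. Below about 10 normalized counts a few reads set the value, so the fold between the low rats carries little information. The log2 fold change was 0.27 (SE 2.11), with a limma adjusted p of 0.943.

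*Csn3* encodes kappa-casein, which sits on the surface of the micelle and keeps it in solution. Its values within WOS were 6426 normalized counts in rat 70, 4399 in rat 71, 2697 in rat 75, 3334 in rat 80, 9782 in rat 84 and 8970 in rat 86. Outside WOS they were 5625 in rat 72, 5810 in rat 74, 16953 in rat 78, 40625 in rat 81, 3514 in rat 83, 6119 in rat 85 and 6821 in rat 87. No rat was under 2697 normalized counts, and the 5 high rats were the same except that rat 87 stood above rat 70. The means were 5930 ± 2960 (SD, n = 6) at 6 weeks and 12200 ± 13300 (SD, n = 7) at 10 weeks, a log2 fold change of -0.69 (SE 0.53) with a limma adjusted p of 0.395.

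*Wap* encodes whey acidic protein, a protease-inhibitor-like protein of rodent milk. Its values within WOS were 120 normalized counts in rat 70, 49 in rat 71, 54 in rat 75, 38 in rat 80, 174 in rat 84 and 123 in rat 86. Outside WOS it was at 57 in rat 72, 79 in rat 74, 318 in rat 78, 933 in rat 81, 47 in rat 83, 65 in rat 85 and 66 in rat 87. Rats 81 and 78 again led, followed by rats 84, 86 and 70. The means were 93.0 ± 54.2 (SD, n = 6) and 224 ± 327 (SD, n = 7), with a log2 fold change of -0.53 (SE 0.68) and a limma adjusted p of 0.628.

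*Lalba* encodes alpha-lactalbumin, the subunit that turns beta-1,4-galactosyltransferase into lactose synthase. Within WOS it was nearly even, at 2056 normalized counts in rat 70, 2040 in rat 71, 1302 in rat 75, 1976 in rat 80, 1803 in rat 84 and 1767 in rat 86. Outside WOS it was at 2675 in rat 72, 2215 in rat 74, 6474 in rat 78, 7978 in rat 81, 1469 in rat 83, 1821 in rat 85 and 2451 in rat 87. The casein-rich rats 84 and 86 were thus not among the high rats for *Lalba*, whereas rats 78 and 81 were. Means of 1820 ± 283 (SD, n = 6) and 3580 ± 2560 (SD, n = 7) gave a log2 fold change of -0.72 (SE 0.36), with an unadjusted p of 0.0703 and an adjusted p of 0.195 in limma.

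*Glycam1* encodes a small mucin-like glycoprotein that is secreted into milk. Within WOS its values were 3120 normalized counts in rat 70, 21 in rat 71, 13 in rat 75, 17 in rat 80, 6764 in rat 84 and 2517 in rat 86. Outside WOS they were 102 in rat 72, 29 in rat 74, 318 in rat 78, 6595 in rat 81, 40 in rat 83, 176 in rat 85 and 62 in rat 87. Within WOS the 3 high and the 3 low rats lay more than 100-fold apart, and outside WOS rat 81 alone reached that upper level. The log2 fold change was 0.67 (SE 1.77), with a limma adjusted p of 0.826.

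**Figure D1:**
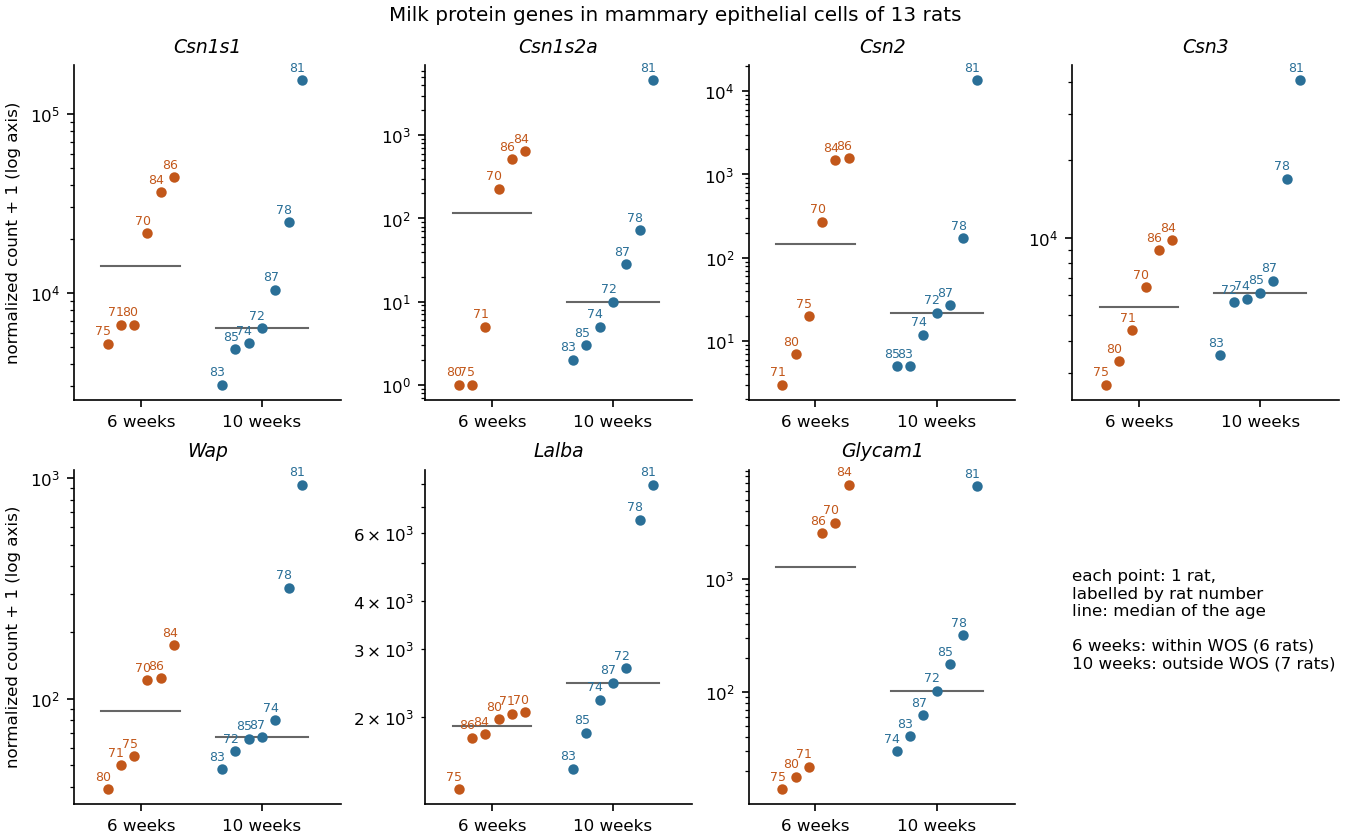
Normalized count + 1 (log axis) of each milk protein gene in each rat, with 6 rats at 6 weeks on the left and 7 at 10 weeks on the right of each panel; each point is 1 rat, labelled by its number, and the line is the median of the age. Rat 81 was highest for 6 of the 7 genes and rat 84 for *Glycam1*, and the ages overlapped for every gene.

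Of the 7 milk protein genes, 0 were DE between the ages at a limma adjusted p under 0.05, and 0 had an unadjusted p under 0.05. Over all 14790 genes tested, 2381 (16.1%) were DE, with 1288 (8.71%) higher at 6 weeks and 1093 (7.39%) at 10 weeks. An unadjusted limma p under 0.05 was held by 4667 of these 14790 genes. For no member did every rat of one age lie above every rat of the other, as was the case for 6.07% of all genes. Estimates were above 0 for *Csn1s1*, *Csn1s2a*, *Csn2* and *Glycam1* and below 0 for *Csn3*, *Wap* and *Lalba*, and the median log2 fold change of the 7 was 0.27 against 0.03 for all genes. In exact permutation tests over the 1716 ways to divide the rats (two-sided, unadjusted), the lowest p was 0.0962 for *Lalba* and the highest 0.91 for *Csn1s2a*.

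The 95% confidence intervals show how little the ages could be told apart for these genes. For *Csn1s2a* the interval of the log2 fold change ran from -4.28 to 4.81, for *Csn2* from -3.57 to 5.19 and for *Glycam1* from -3.15 to 4.49. It was narrower for *Csn1s1* (-1.51 to 2.24), *Wap* (-1.99 to 0.93) and *Csn3* (-1.82 to 0.45), and narrowest for *Lalba* (-1.5 to 0.07). A fold of several times in either direction was therefore not detectable with these rats for most of the members, and a p over the threshold does not show that the ages were alike.

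**Figure D2:**
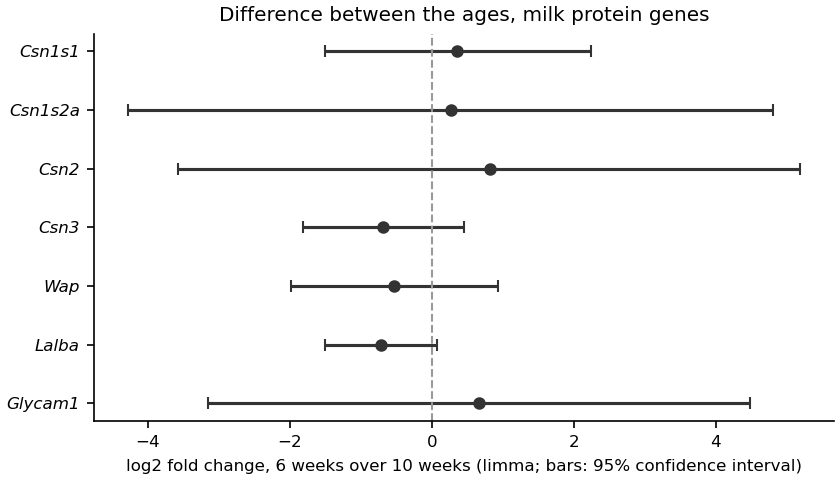
Log2 fold change of each milk protein gene, 6 weeks over 10 weeks (points), with the 95% confidence interval from limma (bars) and a dashed line at 0. All 7 intervals include 0, and the narrowest, that of *Lalba*, runs from -1.5 to 0.07.

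A principal component analysis was made of the values centred within ages, and its leading component held 28.3% of the variance. The rats were cut into a set of 5 and a set of 8 at the largest gap between their scores on it. Such a cut always gives 2 sets. The gap lay between -4.02 (rat 70) and 23.2 (rat 83), where all scores ran from -45.8 (rat 74) to 64.4 (rat 80). No label names this division. In the larger set, 4 rats of each age, the log2 fold change of *Csn1s1* was 1.78 (SE 0.57, limma adjusted p = 0.0544) and that of *Csn1s2a* 4.12 (SE 1.51, adjusted p = 0.0791). In the smaller set, rats 75 and 80 against rats 78, 81 and 83, the same values were -1.95 (SE 1.71, adjusted p = 0.637) and -6.45 (SE 3.36, adjusted p = 0.468). The casein-rich rats within WOS were all in the larger set and those outside WOS all in the smaller one. No member passed the threshold in either set. Over all genes, 3469 of 14774 passed in the larger set and 0 of 14770 in the smaller one. A count of 0 members in the smaller set therefore carries no information. The difference between the sets was not tested.

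Spread between rats of 1 age was wide for these genes. The residual SD, the SD on the log2 scale that is left within ages, was 4.14 for *Csn1s2a*, 3.99 for *Csn2* and 3.47 for *Glycam1*, where the median of all genes was 0.367. These values stood at percentiles 99.95, 99.93 and 99.82 of all 14790 genes. *Csn1s1* followed with 1.70 (percentile 97.96), *Wap* with 1.32 (95.45) and *Csn3* with 1.03 (91.36). *Lalba* had the lowest residual SD of the 7, 0.70 (percentile 82.01). Between the highest and the lowest of the 13 rats, after 1 was added to each value, the ratio was 4580 for *Csn1s2a*, 4480 for *Csn2*, 483 for *Glycam1*, 50.1 for *Csn1s1*, 23.9 for *Wap*, 15.1 for *Csn3* and 6.12 for *Lalba*.

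**Figure D3:**
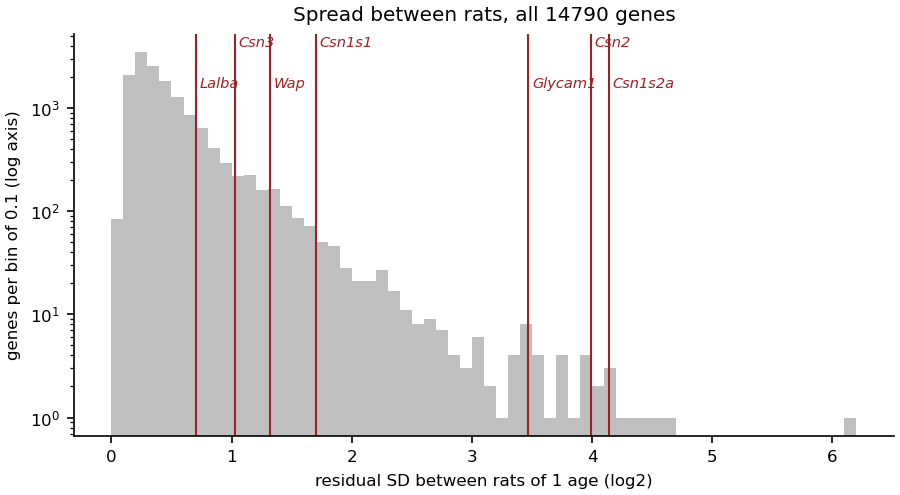
Number of genes (log axis) by residual SD between rats of 1 age on the log2 scale, in bins of 0.1, for all 14790 genes, with vertical lines at the milk protein genes. *Glycam1*, *Csn2* and *Csn1s2a* lie between 3.47 and 4.14, far to the right of the median gene at 0.367, and *Lalba* is the leftmost member at 0.70.

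Whether the spread itself differed between the ages was tested on the mean absolute deviation from the median of the age (exact permutation test, two-sided, unadjusted over 7 genes). Deviations were taken from the medians of the true ages before the labels were permuted, so the p is approximate. For *Glycam1* the deviation was 3.87 log2 units within WOS and 1.75 outside WOS (exact p = 0.0321). *Lalba* had an SD of 0.247 on the log2 scale within WOS and 0.922 outside WOS, with an exact p of 0.136. The other 5 members had an exact p of 0.315 or higher. The *Glycam1* value depended on single rats, and with 1 rat at a time left out its exact p ranged from 0.00216 to 0.461.

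Levels of the milk protein genes went together from rat to rat. On log2 values centred within ages, all 21 pairs of members had an adjusted permutation p under 0.05 for Pearson's r (100000 resamples of the rats within age, two-sided, adjusted over the 21 pairs), and 19 of them did for Spearman's rho. The r ran from 0.506 to 0.979 with a median of 0.9, and rho from 0.454 to 0.938 with a median of 0.801. The closest pair was *Csn1s1* and *Csn3* (r = 0.979, permutation p = 1e-05, adjusted p = 7e-05, and rho = 0.868, permutation p = 0.00058, adjusted p = 0.00135), where 1e-05 is the smallest p that these resamples can give. Without the 2 rats farthest from the median of *Csn1s1* this r was 0.957. The r of the pair was 0.967 within WOS alone and 0.985 outside WOS alone.

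The casein-rich rats carried much of this relation. Rats 78 and 81 were among the 5 highest rats for 7 of 7 members, rats 84 and 86 for 6 and rat 70 for 5, while rats 71, 75, 80, 83 and 85 were so for 0. In the 8 rats other than these 5 high ones, a restriction made after the values were seen and given with no test, r ran from -0.21 to 0.858 over the 21 pairs with a median of 0.323. Among these 8 rats, *Csn1s1* still had r of 0.858 with *Csn1s2a*, 0.788 with *Csn3* and 0.786 with *Lalba*, whereas its r was 0.521 with *Csn2*, 0.321 with *Wap* and 0.212 with *Glycam1*. Leaving out single rats, 18 of 21 pairs passed without rat 78 and 18 without rat 81, and 21 passed without any other rat.

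*Lalba* had the lower correlations over all 13 rats. Its 6 pairs had r from 0.506 (with *Glycam1*) to 0.849 (with *Csn3*), whereas the 15 pairs without *Lalba* had r from 0.815 to 0.979. In the 8 rats without the high ones the order was not kept, with a median r of 0.485 over the pairs with *Lalba* and 0.323 over those without it. Within WOS the 6 pairs with *Lalba* had r from -0.0329 to 0.373, and outside WOS from 0.833 to 0.957. To test this contrast, the slope of each member on *Csn1s1* was compared between the ages on the log2 scale. The test (exact permutation test of the age labels, two-sided, adjusted over 6 members) was chosen after the values were seen. It permuted values already centred within their true ages, so its p is approximate. The slope of *Lalba* was 0.0433 within WOS and 0.448 outside WOS (exact p = 0.0105, adjusted p = 0.021). Thus rats 84 and 86, at 36630 and 44111 normalized counts of *Csn1s1*, had less *Lalba* than rat 78, at 24922.

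*Csn1s2a* and *Glycam1* had the opposite contrast in the same test. The slope of *Csn1s2a* on *Csn1s1* was 3.17 within WOS and 1.97 outside WOS (exact p = 0.00641, adjusted p = 0.021), and that of *Glycam1* was 3.0 and 1.26 (exact p = 0.00758, adjusted p = 0.021). *Csn2*, *Csn3* and *Wap* had an adjusted exact p of 0.113, 0.266 and 0.159. Without rat 78 the 3 differences that passed were 1.16 for *Csn1s2a*, -0.365 for *Lalba* and 1.71 for *Glycam1*, close to the 1.2, -0.404 and 1.74 with all rats, but none passed (adjusted exact p = 0.117 for each). Without rat 81 that of *Csn1s2a* was 1.34 (adjusted exact p = 0.0823). The low counts of *Csn1s2a* weigh on its slope, which differed by 1.2 between the ages with a pseudocount of 1 and by 0.55 with a pseudocount of 10.

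**Figure D4:**
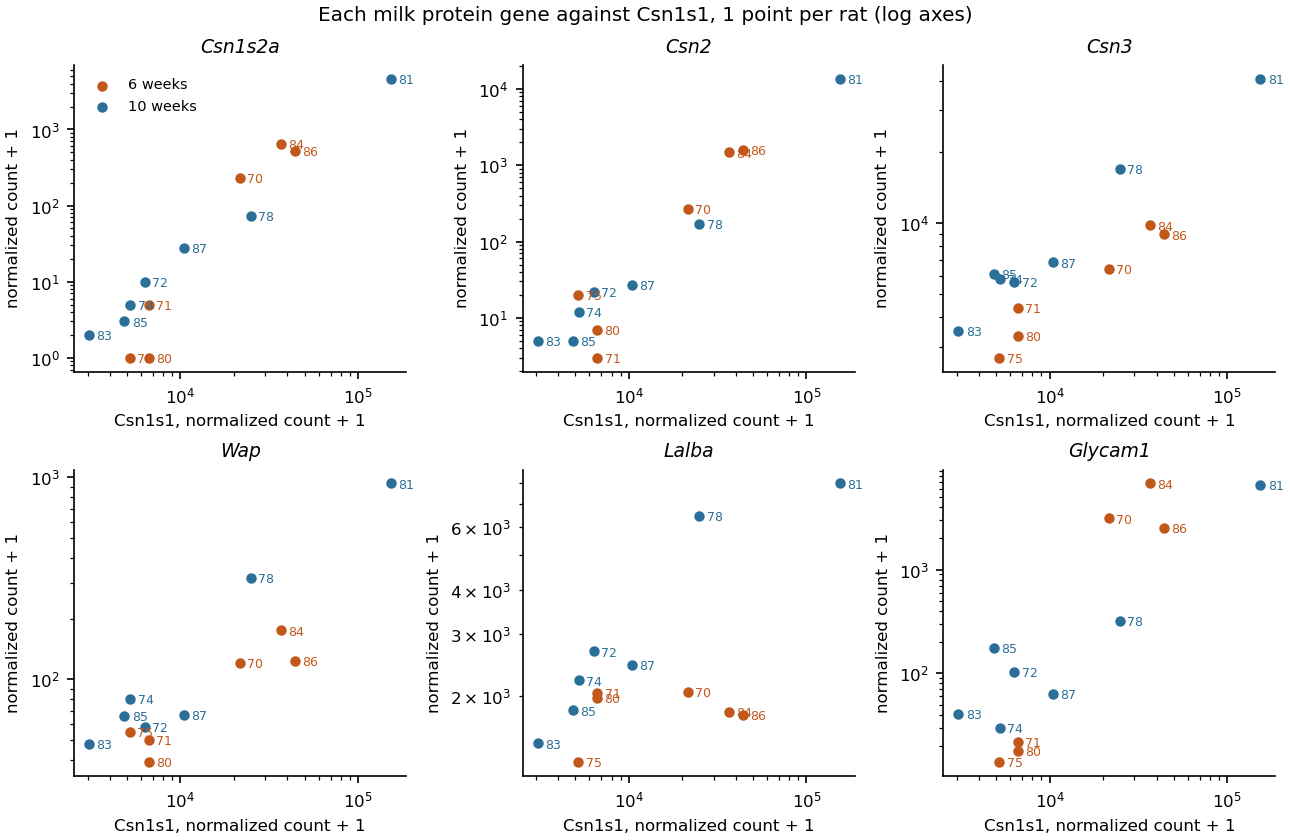
Normalized count + 1 of each other milk protein gene against that of *Csn1s1* (both log axes), 1 point per rat, labelled by its number and coloured by age (6 rats at 6 weeks, 7 at 10 weeks). The caseins climb along with *Csn1s1* at both ages, while *Lalba* stays between 1302 and 2056 in all rats at 6 weeks and reaches 7978 in rat 81.

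The casein cluster on chromosome 14 runs in the RefSeq annotation from *Csn3* to *Csn1s1*, and 6 of the 11 genes in this stretch were in the deposited table. The measured genes that are not members were *Prr27* and *Csn1s2b*, both between *Csn3* and *Csn1s2a*. *Prr27*, a proline-rich protein gene, ranged from 1700 (rat 85) to 30573 (rat 81) normalized counts. Within WOS its values were 7837 in rat 70, 3868 in rat 71, 4556 in rat 75, 4646 in rat 80, 11796 in rat 84 and 16060 in rat 86, so the 3 casein-rich rats led here too. *Csn1s2b*, a second alpha-S2-casein gene, ranged from 25 (rat 75) to 326 (rat 81) normalized counts. Their log2 fold changes were 0.78 (SE 0.61, limma adjusted p = 0.405) and -0.13 (SE 0.56, limma adjusted p = 0.893), and their residual SD was 1.19 and 1.08. The promoter of *Csn1s2b* held TTCTGAGAA, whose first base lay 100 bases before the start. *Prr27* held TTCTTAGAA much closer in, with its first base 25 to 29 bases before its several annotated starts.

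Among the 8851 other genes with a mean of at least 100, those most like the caseins were sought by Pearson's r over the 13 rats with the mean log2 value of the 4 caseins, on values centred within ages. The 57 genes with r of at least 0.8 were 0.644% of them, and the median r was -0.0405. The 10 with the highest r were *Prr27* (r = 0.952), *Btn1a1* (r = 0.934), *Fads2* (r = 0.932), *Fads1* (r = 0.93), *Olah* (r = 0.928), *Elf5* (r = 0.928), *Sec14l2* (r = 0.915), *Car2* (r = 0.899), *Stxbp6* (r = 0.899) and *Ass1* (r = 0.893). They are a description of these libraries with no test, since they were taken as the highest of many and the points share the depth of the library. Without rats 81 and 84, the 2 farthest from the median, r of the 10 lay between 0.733 and 0.925, and rho over all rats between 0.769 and 0.907. None of the 10 was DE between the ages. *Csn1s2b* of the casein cluster, left out by its mean of 93.0, had r of 0.929 with the casein mean.

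Several of these genes have a part in making milk. *Btn1a1* encodes butyrophilin, a major protein of the milk fat globule membrane, and ranged from 1150 (rat 75) to 6690 (rat 81) normalized counts. *Olah* encodes the thioesterase that ends fatty acid synthesis early to give the medium-chain fatty acids of milk, and ranged from 813 (rat 75) to 8825 (rat 81). *Fads1* and *Fads2* encode desaturases of polyunsaturated fatty acids, and *Fads1* was at 867, 1058 and 872 in rats 70, 84 and 86 and at 1274 in rat 81, against 245 to 533 in the other 9 rats. *Elf5* encodes an ETS factor needed for alveolar differentiation. Its normalized counts were 222, 286 and 336 in rats 70, 84 and 86, 275 and 572 in rats 78 and 81, and between 142 and 238 in the other 8 rats.

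**Figure D5:**
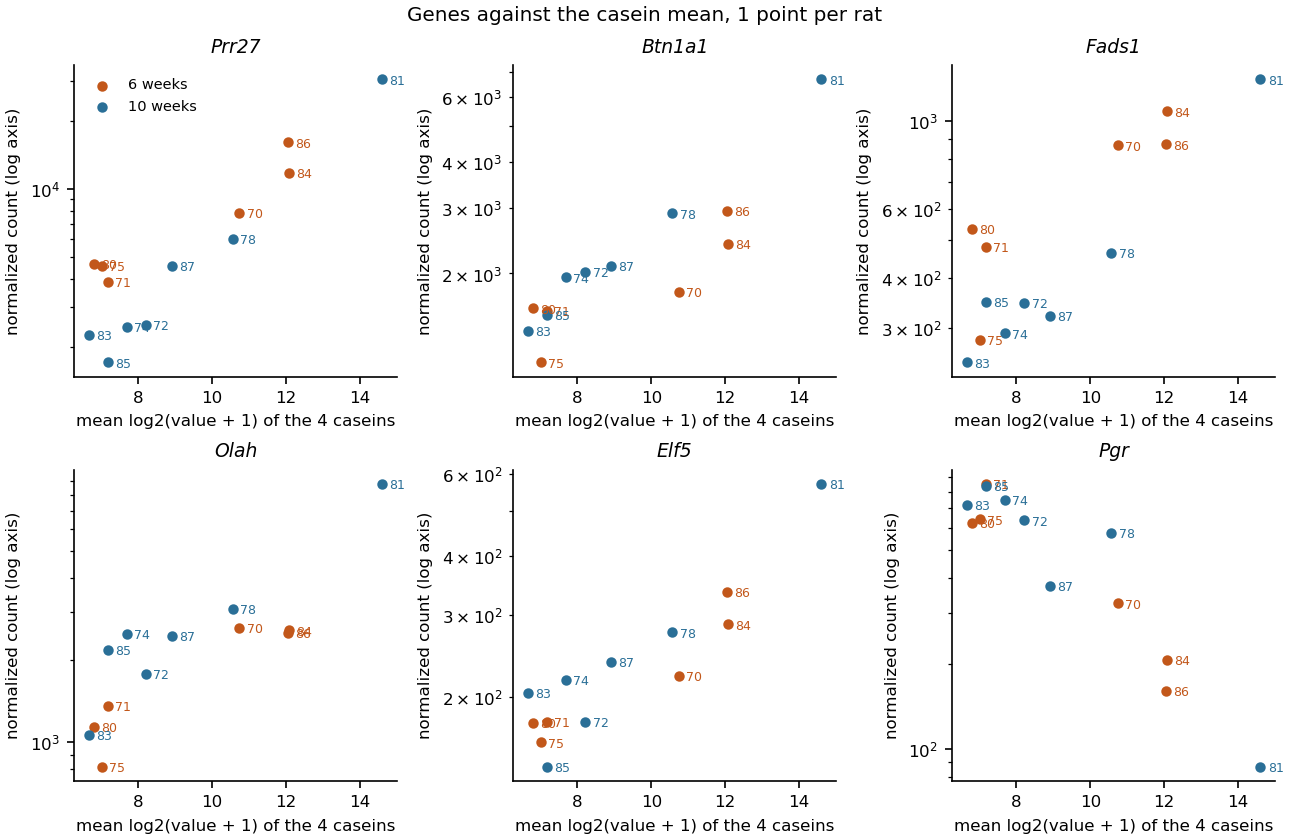
Normalized count (log axis) of 5 of the 10 genes most like the caseins and of *Pgr*, against the mean log2(normalized count + 1) of the 4 caseins, 1 point per rat, labelled by its number and coloured by age. The first 5 genes are highest in rat 81, at 14.6 on the casein axis, and *Pgr* is lowest there, at 87 normalized counts.

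Other genes of milk making were counted on lists. Of other whey and defence proteins of milk, 16 of 20 genes were measured, and 1 was higher within WOS against 3 outside, with a median log2 fold change of -0.30. *Tf*, which encodes transferrin, the iron carrier, had a log2 fold change of -2.56 (SE 0.33, limma adjusted p = 0.000366), *Wfdc18* one of 1.07 (SE 0.28, adjusted p = 0.0213) and *Xdh*, a xanthine oxidoreductase of the milk fat globule membrane, one of -0.71 (SE 0.19, adjusted p = 0.0263). Of the milk fat list, 18 of 20 genes were measured, and 1 was higher within WOS against 4 outside. *Plin2*, the coat protein of lipid droplets, had a log2 fold change of -0.90 (SE 0.18, limma adjusted p = 0.00492), *Acacb*, an acetyl-CoA carboxylase, one of -1.26 (SE 0.28, adjusted p = 0.00958) and *Scd*, a stearoyl-CoA desaturase, one of 0.88 (SE 0.27, adjusted p = 0.0431). With the caseins, 5 of the 16 milk fat genes with a mean of at least 100 had r of at least 0.8, as had 2 of 10 on the whey list.

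Genes of lactose synthesis and casein processing, 19 of 20 measured, were higher outside WOS in 3 cases and within WOS in 0. They were *Slc34a2*, a phosphate transporter (log2 fold change -1.22, SE 0.13, limma adjusted p = 0.00017), *Slc30a4*, a zinc transporter (-0.48, SE 0.12, adjusted p = 0.0178) and *Hk2*, hexokinase 2 (-0.43, SE 0.13, adjusted p = 0.0367). None of the 13 with a mean of at least 100 had r of at least 0.8 with the caseins. *B4galt1*, the catalytic partner of *Lalba* in lactose synthase, ranged only from 937 to 1443 normalized counts, with a log2 fold change of -0.01 (SE 0.12, limma adjusted p = 0.952). Shares of DE genes on these lists lie beside 16.1% of all genes.

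Among prolactin and other lactogenic regulators, 31 records of 30 genes were measured, and 4 were higher outside WOS against 0 within. The 3 with the largest change were *Ehf*, an epithelial ETS factor (log2 fold change -0.70, SE 0.12, limma adjusted p = 0.00191), *Insr*, the insulin receptor (-0.43, SE 0.10, adjusted p = 0.0138) and *Nfib*, a nuclear factor I that acts on milk genes (-0.42, SE 0.12, adjusted p = 0.0272). The median r of the 29 with a mean of at least 100 to the caseins was -0.00233, and only *Elf5* of this list had r of at least 0.8. The core of the prolactin pathway, named here for its role, had residual SDs from 0.253 (*Jak2*) to 0.45 (*Prlr*) on the log2 scale. *Prlr*, the receptor, ranged from 390 to 1184 normalized counts (r with the caseins -0.443), *Jak2* from 2884 to 5225 (r = -0.354), *Stat5a* from 595 to 1048 (r = 0.0484) and *Stat5b* from 249 to 604 (r = -0.076), none of them DE.

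*Pgr*, the progesterone receptor, ran opposite to the caseins, and it and *Greb1* are named after their values were seen. *Pgr* was at 325 normalized counts in rat 70, 855 in rat 71, 641 in rat 75, 623 in rat 80, 206 in rat 84 and 160 in rat 86 within WOS. Outside WOS it was at 635 in rat 72, 748 in rat 74, 576 in rat 78, 87 in rat 81, 722 in rat 83, 838 in rat 85 and 375 in rat 87. Its r with the casein mean was -0.94 over the 13 rats, -0.963 within WOS and -0.925 outside WOS, and 81 of the 8851 genes (0.915%) had r of -0.8 or lower. Without rats 81 and 84 it was -0.862, and rho over all rats was -0.852. *Greb1*, a gene induced by estrogen, fell into separate levels, at 54, 45, 48 and 81 normalized counts in rats 70, 84, 86 and 81 and between 577 and 1515 in the other 9 rats. Rat 78, casein-rich as well, was at 1119, so this division did not follow the caseins in every rat. *Pgr* (log2 fold change -0.27, limma adjusted p = 0.767) and *Greb1* (-2.15, adjusted p = 0.126) were not DE.

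Estrogen and progesterone targets as a list, 11 of 15 measured, were higher within WOS in 3 cases and outside WOS in 1. The 3 largest were *Cited1*, a transcriptional coregulator of estrogen-responsive cells (log2 fold change 1.86, SE 0.59, limma adjusted p = 0.0489), *Myc* (-0.73, SE 0.12, adjusted p = 0.00172) and *Igfbp4* (0.53, SE 0.16, adjusted p = 0.0384). *Pgr* and *Greb1* are on this list, whose median r with the casein mean was -0.219, and *Ccnd1* (r = 0.669) and *Cited1* (r = 0.407) lay on the other side of 0. Cell cycle genes, 19 of 20 measured, were higher within WOS in 15 cases and outside WOS in 0, with a median log2 fold change of 2.12. *Tpx2* (log2 fold change 3.67, SE 0.73, limma adjusted p = 0.00573), *Birc5* (3.37, SE 0.48, adjusted p = 0.000653) and *Ccnb1* (3.14, SE 0.36, adjusted p = 0.000194), all genes of mitosis, moved most. The median r of the 10 cell cycle genes with a mean of at least 100 to the caseins was 0.481, and 1 had r of at least 0.8. Under that mean, *Cdk1* (r = 0.832) and *Ccnb1* (r = 0.827) also reached 0.8, and the others ran from 0.241 (*Plk1*) to 0.776 (*Cdc20*).

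Marker lists of 10 cell types were set against *Csn1s1* between rats, with age means removed. None passed an adjusted p under 0.05 (permutation test, 100000 resamples, two-sided). In this test the lowest adjusted p over the 10 lists was 0.915 for r and 0.934 for rho. For the 15 luminal markers r was 0.0865 (permutation p = 0.767) and rho 0.104 (permutation p = 0.747), and without the 2 farthest rats r was 0.385. For the 11 measured of 12 basal markers r was -0.0579 and for the 9 measured of 10 fibroblast markers 0.183. The r farthest from 0 over the 10 cell type lists was that of the 5 measured adipocyte markers, -0.476 (permutation p = 0.122), with a Spearman rho of -0.396 and an r of -0.0581 without the 2 rats farthest from the median. The basal markers did not run one way with the caseins, since *Myh11* had r of -0.824, *Tagln* of -0.681 and *Krt5* of 0.533 with the casein mean, and the median of the 10 with a mean of at least 100 was -0.376. Nor did the 15 luminal markers, which ran from -0.63 (*Kit*) to 0.843 (*Muc1*) with a median of 0.0908. With the mean log2 value of the luminal markers as a covariate, the log2 fold change of *Csn1s1* was 0.41 (SE 0.92, limma adjusted p = 0.777) and that of *Lalba* -0.66 (SE 0.37, adjusted p = 0.223). Of other cell types, higher within WOS were 7 of 9 fibroblast markers, 7 of 9 mast cell markers and 3 of 5 adipocyte markers. So were 1 of 4 lymphocyte markers and 5 of 5 records of red blood cell genes. Of the 15 luminal and 11 basal markers, 0 were higher within WOS, while 3 luminal markers and 1 basal marker were higher outside WOS. The mast cell list also had 1 marker higher outside WOS, *Kit* (log2 fold change -0.71, limma adjusted p = 0.0343), which is 1 of the 3 luminal ones as well. Of 10 macrophage, 8 endothelial and 3 skeletal muscle markers, 0 were DE in limma, with an unadjusted p under 0.05 for 1 of each list. The part of cell makeup in the levels of the milk protein genes was not tested beyond these values.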

How the data were processed

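RNA-seq of mammary epithelial cells was analysed for 13 rats, 6 at 6 weeks and 7 at 10 weeks of age. Reads were assigned to genes by the authors with RSEM 1.2.22. They scaled each library by an unstated factor and deposited whole numbers, taken here as a score and called normalized counts. The submitters' processing notes name the rn5 build, edgeR and DESeq2. The annotation is not given in the sources used here. The authors' deposited table also holds the results of their own test, with log2 fold changes and abundances, a test statistic as a score, p-values with false discovery rates and −log10 p. None of these columns was used.

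Ages were compared on log2(normalized count + 1) with limma (version 3.58.1, R 4.3.3) for all 14790 genes, each with a mean of at least 1, two-sided, Benjamini-Hochberg adjusted, at a threshold of 0.05. This scale understates the change of low genes. No count test was used, since the values are scaled. The fit was tested on simulated data. Permutation tests, correlations and promoter matches used numpy 2.4.6, scipy 1.17.1 and pandas 2.3.3 under Python 3.11.15. No gene lengths were used, so levels were not compared between genes, and no member shared all its values with another gene.

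The members and gene lists were chosen with earlier results of these data known. Named genes were the members, the 3 DE genes of each other list with the largest change, measured genes between members at the casein locus, and the 10 genes most like the caseins, and other names were chosen for their role or after their values were seen. Alternatives were other scalings, pseudocounts, minimums, limma-trend, sample weights, covariates, rat sets and each rat left out. Promoters came from RefSeq on GRCr8, which is not the build of the counts. Precision at low values is set by depth, which differs between rats and is not known from the scaled values alone.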

Additional observations from a re-analysis of the deposited data

Results flagged for a closer look

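Rat 81, at 10 weeks, stood far from the other 6 rats of its age. On normalized counts its gap to the next rat, as a share of the range of the age, was 0.855 for *Csn1s1*, 0.984 for *Csn1s2a*, 0.988 for *Csn2*, 0.638 for *Csn3*, 0.694 for *Wap* and 0.956 for *Glycam1*, each above Dixon's critical value of 0.568 for 7 samples. On the log2 scale none of these 6 passed. On that scale the low value of *Lalba* in rat 75, at 6 weeks, passed with 0.668 against a critical value of 0.625. Of 14 groups examined on each scale, 6 passed on normalized counts and 1 on the log2 scale. The chance rate of about 1 in 20 holds for separate groups of normally distributed values. The 6 were all rat 81, in genes that went together between rats and on a skewed scale. They are therefore not 6 separate results and were not set against that rate.

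The slope on *Csn1s1* passed the test of a difference between the ages for 3 members. It differed (6 minus 10 weeks) by 1.2 for *Csn1s2a*, by -0.404 for *Lalba* and by 1.74 for *Glycam1*, in a test chosen after the values were seen (exact permutation test, adjusted p = 0.021 for each). Without rat 78 the differences were 1.16, -0.365 and 1.71, with an adjusted exact p of 0.117 for each, and without rat 81 that of *Csn1s2a* was 1.34 (adjusted exact p = 0.0823).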

How the results depend on the processing

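Over 27 alternatives, limma called 0 of the members DE, with an unadjusted p under 0.05 in 5 of 187 values (3 for *Lalba*, 1 each for *Csn1s1* and *Csn1s2a*). Over all genes, the number with an unadjusted limma p under 0.05 was far from small. It ran from 1976 of 14770 in the smaller set of rats to 7127 of 14790 with sample quality weights. The lowest limma adjusted p was 0.0544, for *Csn1s1* in the larger set of rats. *Csn1s2a* and *Csn2* were not tested under a minimum of 10 in every rat. Of the 187 values, 169 kept the direction of the reported fold change and 18 turned. In the smaller set of rats the log2 fold change turned to -1.95 for *Csn1s1*, -6.45 for *Csn1s2a*, -4.26 for *Csn2* and -4.8 for *Glycam1*. In the larger set it turned to 0.216 for *Csn3* and 0.669 for *Wap*. With sample quality weights that of *Wap* was 0.165, and with a pseudocount of 0.1 that of *Csn1s2a* was -0.623. With each rat left out in turn the log2 fold change ranged from -0.647 to 1.55 for *Csn1s2a*, from -0.0476 to 2.18 for *Csn2*, from -0.274 to 1.56 for *Glycam1*, from 0.0332 to 0.995 for *Csn1s1* (lowest without rat 86, highest without rat 81), from -0.749 to -0.0263 for *Wap*, from -0.899 to -0.311 for *Csn3* and from -0.885 to -0.478 for *Lalba*. The cause was not tested. Of the 21 pairs of members, 21 passed with a pseudocount of 10, library size scaling or the first residual component removed, and 18 to 21 with a rat left out. Over all genes, the count of 2381 DE genes moved by over 1.5 times to 5647 with sample quality weights, 3642 with the luminal covariate, 0 in the smaller set of rats (1976 with an unadjusted p under 0.05), and 1411, 1488 and 1558 without rat 70, 84 or 87.

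Other alternatives were chosen after the data were seen. The count of members with an exact p under 0.05 ranged from 0 to 1 for the difference between the ages, where *Lalba* passed without rat 83 (exact p = 0.013), and from 0 to 3 for the spread, with 3 without rat 81 (*Csn1s2a*, *Csn2* and *Glycam1*). Without rat 75, *Csn2* also passed the test of slopes, with a difference of 1.18 (adjusted exact p = 0.0152). Library size scaling and a pseudocount of 10 changed no call of these tests. No paired analysis was possible because the ages share no rat numbers.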
